A study of Homo sapiens with 18 samples.

Results

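Keratin genes were taken as every listed gene whose symbol is KRT followed by a number and at most 1 letter from A to C. This rule found 53 of the 50119 listed genes, and it left out 125 keratin pseudogenes. Of the 53, 27 encode type I keratins, 25 encode type II keratins, and KRT222 is a keratin-like gene. KRT35 and KRT77 were not analysed here.

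The libraries were made from osteosarcoma cells labelled Soas-2 (the Saos-2 line) with the genotype label WT, and the question was how culture conditions change their transcription. There were 6 groups of 3 libraries: 2D cells after 14 days (D-2), 3D cells in Matrigel after 14 days (D-3), cells printed in a gelatin methacrylate and alginate bioink after 1 day (DP-3 day 1) and after 14 days (DP-3), pieces of tumour cultured on Matrigel for 14 days (IT), and fresh isolated tumour tissue (FIT). FIT came from tumours that grew for 2 weeks under the skin of the axilla of female BALB/c nude mice, which were 4 weeks old at implantation. Tumours were divided into parts, and the IT cultures came from the same tumours as FIT. The FIT and IT pieces can hold mouse cells beside the human ones.

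The totals ran from 23721666 to 79082786 estimated counts per library, with FIT replicate 3 the lowest and all others at 50327345 or more. A gene with at most 12 estimated counts, about 3 read pairs, was taken as being at the detection floor. The cell line label was checked against a known feature of Saos-2, its abundant alkaline phosphatase, and against bone markers. ALPL, the alkaline phosphatase of bone, did not exceed 0.148 FPKM (fragments per kilobase of transcript, scaled to the size of the library) in any library, and the bone markers SP7 and IBSP did not exceed 0.0949 and 0.0802 FPKM. These values go against the label, and the cells are therefore called by their group names. No label or method says that the 3 libraries of a group came from separate cultures or animals, so the p-values may measure technical spread alone.

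Keratins are the intermediate filament proteins of epithelia, hair and nail. Filaments form from pairs of an acidic type I and a basic type II chain, and epithelia use characteristic pairs, such as KRT8 with KRT18 in simple epithelia, KRT5 with KRT14 in the basal layer of the epidermis, and hair keratins in the cortex of the hair shaft. Bone cells are mesenchymal and build their filaments mainly from vimentin, although some sarcomas also make simple epithelial keratins.

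The keratin transcripts were dominated by a hair keratin and a hair follicle keratin. KRT81 (ENSG00000205426, chromosome 12, 52285913 to 52291534, minus strand, coordinates of GRCh38), a type II keratin of the hair cortex, and KRT75, a type II keratin of the companion layer of the hair follicle, together made up 48.1% to 79.0% of the summed keratin FPKM of a library. KRT81 ranked 131st by mean FPKM among all genes in D-3, and KRT75 ranked 215th in FIT. A group mean of at least 1 FPKM was reached by 14 keratins: 10 of type II (KRT81, KRT75, KRT80, KRT86, KRT8, KRT7, KRT6A, KRT5, KRT6B and KRT83) and 4 of type I (KRT10, KRT18, KRT15 and KRT14). A further 16 rose above the detection floor in a library without such a mean. The other 23 stayed at or under the floor in all 18 libraries, with at most 0.117 FPKM.

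**Figure D1:**
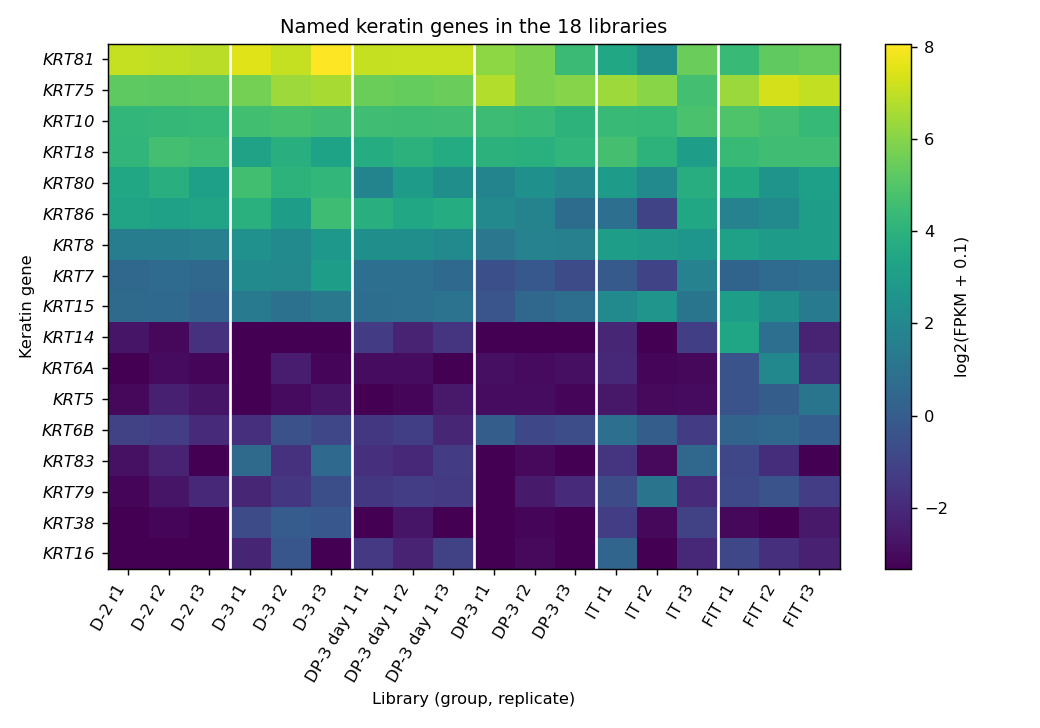
Level of the 17 keratin genes named here in each library, as log2(FPKM + 0.1). Rows are genes ordered by their highest group mean, columns are the 18 libraries in 6 groups, and lighter colour is a higher level. KRT81 is brightest in DP-3 day 1, D-3 and D-2, and KRT14, KRT6A and KRT5 are visible above the darkest colours mainly in FIT.

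The rare keratins were listed above 0 most often in DP-3 day 1. Of the 23 keratins at or under the floor, 21 had a value above 0 in a DP-3 day 1 library, against 7 in IT, 6 in D-3, 5 in FIT, 2 in D-2 and 1 in DP-3. Keratins above 0 FPKM numbered 32 to 38 in the DP-3 day 1 libraries and 16 to 31 in the other libraries. DP-3 day 1 also had the most genes of any kind at 0.1 FPKM or more, 24694 to 24791, against 17716 to 22322 elsewhere. The part of this general breadth in the keratin counts was not tested.

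Many keratins have close copies, which limits how reads can be assigned. KRT81 and KRT86, a hair keratin gene whose span on chromosome 12 contains KRT81 on the opposite strand, had 90.1% identical coding sequences (GENCODE release 29) with an identical run of 605 bases. Of all stretches of 1 read length (150 bases) in the KRT81 coding sequence, 33.4% occurred unchanged in KRT86. The following stretch, bases 566 to 715 of both coding sequences, is shown because it crosses the end of the identical run, and the capitals mark the 2 bases that differ.
KRT81: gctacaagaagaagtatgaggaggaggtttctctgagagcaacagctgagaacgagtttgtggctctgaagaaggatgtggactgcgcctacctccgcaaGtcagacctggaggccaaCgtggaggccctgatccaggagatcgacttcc
KRT86: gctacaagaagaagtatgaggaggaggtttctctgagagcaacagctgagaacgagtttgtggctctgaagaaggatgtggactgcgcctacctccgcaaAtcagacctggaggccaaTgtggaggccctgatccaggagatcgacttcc
The KRT81 stretch lies at chr12:52288381-52290090 on the minus strand and the KRT86 stretch at chr12:52303296-52305007 on the plus strand (GRCh38), each in exons with 2 exon junctions inside. Whether the counting used the strand is not stated, so reads of KRT81 and KRT86, and of the overlapping pairs KRT8 with KRT18 and KRT7 with KRT86, cannot be told apart with certainty. Coding identity was 97.5% to 98.5% among KRT6A, KRT6B and KRT6C, 95.1% between KRT33A and KRT33B, 85.2% between KRT14 and KRT16, and 78.7% between KRT14 and KRT17. KRT83 shared no full read length with KRT81 or KRT86, and KRT75 shared none with the KRT6 genes.

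KRT81 separated the groups most clearly. Its FPKM were 134, 124 and 120 in D-2, 179, 134 and 267 in D-3, and 135, 137 and 139 in DP-3 day 1. They were 69.2, 56.0 and 21.3 in DP-3, 11.0, 4.87 and 44.5 in IT, and 20.8, 39.1 and 42.8 in FIT. All 9 libraries of DP-3 day 1, D-3 and D-2 lay above all 9 libraries of DP-3, IT and FIT. In the order of group means, D-3, DP-3 day 1, D-2, DP-3, FIT and IT, the ranges of D-3 and DP-3 day 1 overlapped, as did those of DP-3 with FIT and FIT with IT.

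KRT75 ran in another order. Its FPKM were 80.9, 159 and 128 in FIT, 51.9, 84.4 and 96.5 in D-3, and 106, 56.3 and 62.8 in DP-3. They were 84.1, 66.4 and 24.8 in IT, 44.9, 41.7 and 43.5 in DP-3 day 1, and 38.1, 36.9 and 37.8 in D-2. D-2 was the lowest group, and only DP-3 day 1 and D-2 among neighbours in this order did not overlap. The ratio of KRT81 to KRT75 FPKM was 3.17 to 3.51 in D-2, 3.00 to 3.30 in DP-3 day 1 and 1.59 to 3.45 in D-3, but 0.339 to 0.995 in DP-3 and 0.246 to 0.336 in FIT. In IT it was 0.0733, 0.131 and 1.79, with replicate 3 apart from the others.

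**Figure D2:**
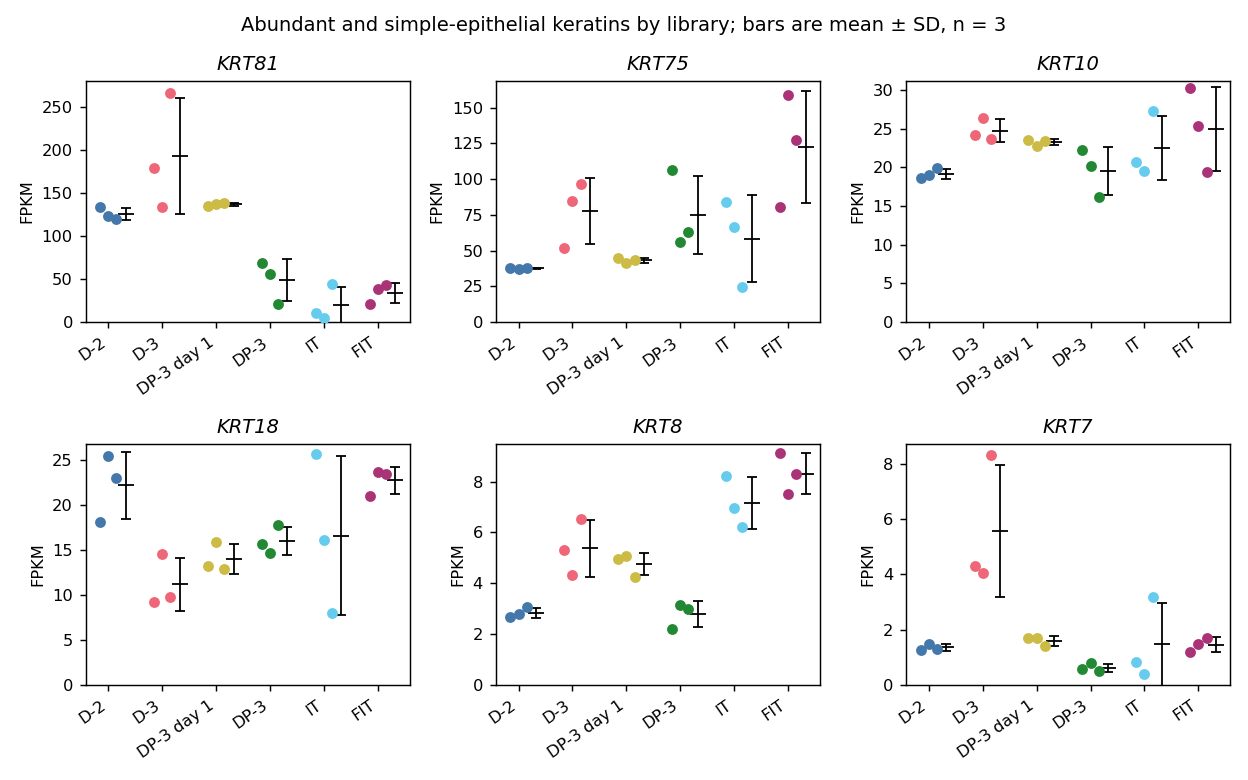
FPKM of KRT81, KRT75, KRT10, KRT18, KRT8 and KRT7 in the 18 libraries. Points are libraries, and bars give the mean ± SD of 3 libraries per group, with bars that would pass below 0 ending at the axis. KRT81 is above 119 FPKM in all libraries of DP-3 day 1, D-3 and D-2 and below 70 in all others, whereas KRT10 stays between 16.2 and 30.2.

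KRT10, the type I keratin of the upper layers of the epidermis, varied least among the abundant members. Its group means ran from 19.2 ± 0.635 FPKM (SD, n = 3) in D-2 to 25.0 ± 5.44 (SD, n = 3) in FIT. It was tested in all 7 comparisons and was a DEG in none. Its usual type II partner KRT1 stayed at or under the floor in every library.

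The simple epithelial pair KRT8 and KRT18 did not move together. KRT18 (type I) had FPKM of 18.2, 25.5 and 23.0 in D-2, 9.26, 14.6 and 9.76 in D-3, and 13.2, 15.9 and 12.9 in DP-3 day 1. It had 15.7, 14.7 and 17.7 in DP-3, 25.7, 16.2 and 7.99 in IT, and 21.1, 23.7 and 23.4 in FIT. D-2 and FIT were thus alike in range, and D-3 lay below both. KRT8 (type II) had FPKM of 2.68, 2.77 and 3.06 in D-2, 5.30, 4.30 and 6.53 in D-3, and 4.96, 5.05 and 4.25 in DP-3 day 1. It had 2.20, 3.16 and 2.98 in DP-3, 8.24, 6.98 and 6.23 in IT, and 9.14, 7.50 and 8.30 in FIT. KRT8 was therefore highest in the tumour tissues and lowest in D-2 and DP-3. KRT18 exceeded KRT8 in all 18 libraries, by 6.76 to 9.18 times in D-2 and by 1.28 to 3.39 times in D-3 and IT. The FPKM sum of all type II keratins exceeded that of type I in every library, by 1.83 to 11.4 times.

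KRT7, a type II keratin of ductal and other simple epithelia, was highest in D-3, with FPKM of 4.30, 4.06 and 8.32. It was 1.28, 1.49 and 1.304 in D-2, 1.69, 1.70 and 1.39 in DP-3 day 1, and 0.578, 0.776 and 0.503 in DP-3. It was 0.832, 0.404 and 3.19 in IT and 1.18, 1.49 and 1.71 in FIT. The D-3 libraries lay above all other libraries, and the DP-3 libraries below those of all groups but IT. KRT80, an epithelial type II keratin, was likewise highest in D-3, with 24.6, 16.5 and 18.5 FPKM, against 11.2, 14.6 and 8.55 in D-2. It had 3.42, 7.82 and 5.07 in DP-3 day 1, 3.37, 5.10 and 3.82 in DP-3, 7.64, 4.25 and 13.6 in IT, and 11.9, 5.92 and 8.43 in FIT. KRT86, like KRT81, had higher group means in D-3, DP-3 day 1 and D-2 than in the other groups. Its FPKM were 10.1, 8.997 and 10.0 in D-2, 15.1, 7.96 and 23.3 in D-3, 14.2, 11.3 and 13.2 in DP-3 day 1, and 4.01, 3.36 and 1.52 in DP-3. It had 1.70, 0.406 and 10.9 in IT and 3.18, 4.09 and 7.91 in FIT. Unlike for KRT81, IT replicate 3 lay above all D-2 libraries, and DP-3 had the lowest mean. In all libraries KRT86 amounted to 5.79% to 24.6% of KRT81.

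The epidermal keratins KRT5 and KRT6A stood out in FIT, and KRT14 did so in FIT replicates 1 and 2 only. KRT5, the basal type II keratin, had 0.642, 0.918 and 2.04 FPKM in FIT and at most 0.1001 in each of the other 15 libraries. KRT6A, a type II keratin of wounded epidermis and of hair follicles, had 0.653, 3.94 and 0.185 FPKM in FIT and at most 0.143 elsewhere. Its value in FIT replicate 3, the library with the lowest total, came from 16 estimated counts. KRT14, the basal type I partner of KRT5, had 10.4, 1.67 and 0.115 FPKM in FIT, 0.307, 0.117 and 0.233 in DP-3 day 1, and 0.136, 0 and 0.336 in IT. In FIT replicate 3 KRT14 had 8 estimated counts, under the floor of 12, and its FPKM lay below all DP-3 day 1 libraries. It had 0.0552, 0.0188 and 0.210 in D-2 and was listed at 0 in all libraries of D-3 and DP-3. The FIT libraries thus differed in which of these keratins was highest, with KRT14 leading in replicate 1, KRT6A in replicate 2 and KRT5 in replicate 3. KRT15, another basal type I keratin, had 8.01, 4.98 and 2.44 FPKM in FIT and 4.19, 5.98 and 2.06 in IT. It had 2.38, 1.86 and 2.23 in D-3, 1.64, 1.68 and 1.897 in DP-3 day 1, 1.42, 1.39 and 1.10 in D-2, and 0.697, 1.33 and 1.63 in DP-3.

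**Figure D3:**
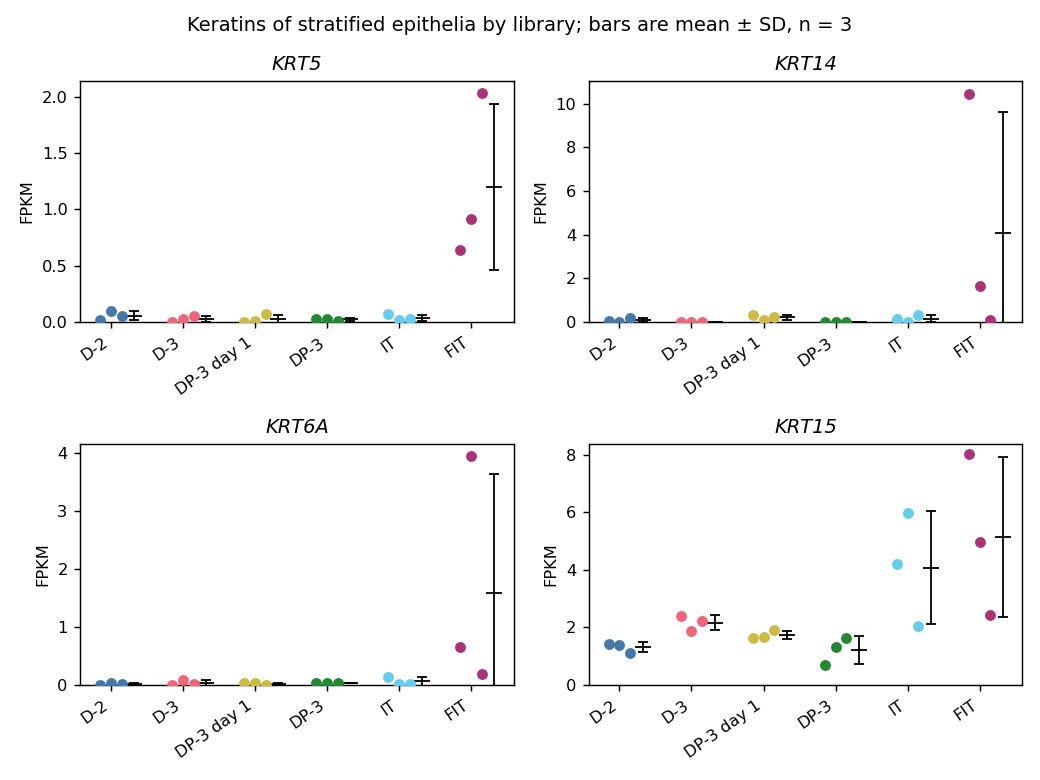
FPKM of KRT5, KRT14, KRT6A and KRT15 in the 18 libraries. Points are libraries, and bars give the mean ± SD of 3 libraries per group, with bars that would pass below 0 ending at the axis. KRT5 and KRT6A are higher in each FIT library than in the other groups, and KRT14 reaches 10.4 FPKM in 1 FIT library.

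Markers of other cells differed between the groups. The summed FPKM of 14 keratinocyte markers that are not keratins (12 of them listed) was 8.25 to 18.3 in FIT, 14.9 to 42.2 in IT, 33.8 to 42.8 in D-3 and 3.48 to 16.9 in the other cultures of cells. Most of it came from SFN and SBSN, whereas the defining desmosomal cadherins DSG3 and DSC3 and the cornified envelope genes IVL and LORICRIN were listed at 0 in all FIT libraries. TP63, the transcription factor of basal epithelia, was at 0.125 to 0.396 FPKM in FIT. The endothelial sum of 5 markers was 3.82 to 6.08 FPKM in FIT and 4.21 to 6.51 in IT, against 1.03 to 2.29 elsewhere, and the muscle sum of 10 markers reached 5.74 in FIT replicate 3. The macrophage sum of 5 markers was 19.95 to 56.1 FPKM in FIT, 44.2 to 65.0 in IT, 61.6 to 86.3 in D-3 and 43.2 to 116.8 in the other groups. It was 43.2 to 45.9 in D-2, a culture of the cells alone, and so cannot be read as macrophage content. Of the 5 markers, 2 were at or under the floor in all D-2 libraries, and 2 in all FIT libraries. The part of mouse host or skin cells in the keratin values of FIT was not tested, and fewer cells of a type and less RNA per cell cannot be told apart in bulk libraries.

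The low hair and epidermal members were patchy. KRT83, a hair keratin, had 1.43, 0.205 and 1.40 FPKM in D-3 and 0.233, 0.0206 and 1.31 in IT. It had 0.435, 0.180 and 0 in FIT, 0.197, 0.151 and 0.303 in DP-3 day 1, 0.0427, 0.122 and 0 in D-2, and 0, 0.0217 and 0 in DP-3. KRT38, a type I hair keratin, had 0.505, 0.902 and 0.747 FPKM in D-3, 0.313, 0.0174 and 0.372 in IT, and at most 0.0719 in the other groups. It was the only type I hair keratin of the 10 listed to reach a group mean of 0.5 FPKM. KRT6B had 1.12, 1.35 and 0.958 FPKM in FIT, 1.70, 0.931 and 0.300 in IT, 0.925, 0.459 and 0.539 in DP-3, and 0.198, 0.610 and 0.442 in D-3. It had 0.365, 0.319 and 0.164 in D-2 and 0.256, 0.332 and 0.136 in DP-3 day 1. KRT79, an epithelial type II keratin, was at 0.473, 0.647 and 0.315 FPKM in FIT, 0.520, 1.95 and 0.162 in IT, 0.132, 0.252 and 0.563 in D-3, and 0.261, 0.317 and 0.279 in DP-3 day 1. It was at 0.0165, 0.0578 and 0.138 in D-2 and 0, 0.0790 and 0.164 in DP-3. KRT16, a type I keratin of wounded epidermis, was listed at 0 in all D-2 libraries and was at 0.434, 0.188 and 0.109 FPKM in FIT, 0.125, 0.716 and 0 in D-3, 1.21, 0 and 0.1504 in IT, 0.274, 0.121 and 0.374 in DP-3 day 1, and 0, 0.0206 and 0 in DP-3.

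Promoter sequences (RefSeq, GRCh38.p14, 250 bases before to 50 after the start) were at hand for 37 of the 53 keratins. Those of KRT81, KRT86, KRT80, KRT18, KRT7, KRT15, KRT14, KRT6A, KRT6B and KRT83 were missing, although each reached a group mean of 1 FPKM. The shares below therefore describe mostly keratins without such a mean. A TATAAA box on either strand was found in 20 of these 37 (54.1%), against 11.5% of all 35116 promoters. Of the keratins given with values here, only KRT10 and KRT38 were among the 20. A GC box (GGGCGG) was found in 6 (16.2%), against 45.0% of all, and the AP-1 element TGANTCA in 0, against 7.71% of all. The letters do not overlap between these motifs, a match is only a match of letters, and no test was made. The promoters of KRT75, KRT5 and KRT10 are shown because the first pair was higher in FIT than in D-2 and KRT10 was a DEG in no comparison. Capitals mark a GC box on the opposite strand in KRT75 and a TATAAA box in KRT10, and KRT5 held none of the 3 motifs.
KRT75: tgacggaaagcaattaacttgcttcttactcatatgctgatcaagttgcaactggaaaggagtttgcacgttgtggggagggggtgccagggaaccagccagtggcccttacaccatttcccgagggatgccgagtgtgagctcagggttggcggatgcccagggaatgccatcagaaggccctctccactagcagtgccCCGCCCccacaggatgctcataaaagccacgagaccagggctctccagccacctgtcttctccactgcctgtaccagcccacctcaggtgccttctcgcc
KRT5: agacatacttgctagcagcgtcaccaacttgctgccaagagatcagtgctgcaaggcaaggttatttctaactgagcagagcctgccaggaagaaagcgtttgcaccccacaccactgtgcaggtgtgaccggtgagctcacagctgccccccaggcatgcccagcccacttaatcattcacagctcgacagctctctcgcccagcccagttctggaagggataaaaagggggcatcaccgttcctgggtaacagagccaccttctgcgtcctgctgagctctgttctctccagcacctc
KRT10: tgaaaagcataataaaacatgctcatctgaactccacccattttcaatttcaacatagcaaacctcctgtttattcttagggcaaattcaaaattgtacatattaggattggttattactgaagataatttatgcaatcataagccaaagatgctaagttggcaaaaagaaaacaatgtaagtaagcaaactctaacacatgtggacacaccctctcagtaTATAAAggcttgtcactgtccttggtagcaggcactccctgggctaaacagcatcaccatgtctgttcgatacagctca
They lie on the minus strand at chr12:52434322-52434621, chr12:52520345-52520644 and chr17:40822565-40822864.

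For the tests, genes with at least 0.1 FPKM in at least 3 of the 6 libraries of a comparison were fitted with edgeR's quasi-likelihood test, and a differentially expressed gene (DEG) had a Benjamini-Hochberg adjusted p below 0.05 over all genes and a fold change of at least 2. In all, 20 keratins were tested in at least 1 of 7 comparisons, 11 in all 7, and 16 were a DEG in at least 1. The remaining 33 never passed the filter. The 4 comparisons against FIT share the FIT libraries, and the others share D-2 or DP-3, so their values are given side by side without any overlap. Medians over keratins were the same with the genes at the floor set to their bounds. The bounds keep the sign of each value and left these genes on the same side of the median. This says nothing about the effect of genes that passed the filter through 1 group alone. All log2 fold changes are for the first group minus the second. The 95% intervals were made from the SE with the normal distribution, and they are narrower than the test implies. For KRT80 in D-2 against FIT, for example, the interval ran from 0.02 to 1.08 at an unadjusted edgeR p of 0.0803.

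Against FIT, the D-2 cells had less of KRT75, KRT8, KRT15, KRT5, KRT6A, KRT6B and KRT16 and more of the hair keratin KRT81. The epidermal keratin KRT10 was not a DEG (log2 -0.23, adjusted p = 0.322). Of 18 keratins tested, 11 were DEGs, 2 upregulated and 9 downregulated, where 14.6% of all 19513 tested genes were DEGs, 3.83% upregulated and 10.8% downregulated. The D-2 and FIT ranges did not overlap for 11 keratins and for 49.9% of all tested genes. The median log2 fold change was -1.48 over the tested keratins and -0.09 over all tested genes, and 2 of the 18 (KRT6A and KRT16) passed the filter through FIT alone. KRT81 rose by 2.03 ± 0.269 (log2, SE, adjusted p = 0.00337), with means of 126 ± 7.05 FPKM in D-2 and 34.2 ± 11.8 in FIT (SD, n = 3). Lower in D-2 were KRT75 (log2 -1.56 ± 0.248, adjusted p = 0.00527), KRT8 (-1.39 ± 0.108, adjusted p = 0.00149) and KRT15 (-1.82 ± 0.393, adjusted p = 0.0139). KRT5 was lower as well (-4.14 ± 0.726, adjusted p = 0.00717, -4.84 without D-2 replicate 2), as was KRT6B (-1.87 ± 0.4, adjusted p = 0.0135). KRT6A was at least 35.7-fold lower and KRT16 at least 4.74-fold lower in D-2, counted against the floor of 12 counts per library. Without FIT replicate 2 the bound of KRT6A was 9.49-fold, and without FIT replicate 1 that of KRT16 was 2.88-fold. KRT18 and KRT7 were not DEGs, with 95% intervals of the log2 fold change from -0.17 to 0.40 and from -0.39 to 0.49. KRT14 (-5.21, adjusted p = 0.0389), KRT79 (-2.59, adjusted p = 0.0362) and KRT86 (1.10, adjusted p = 0.0372) lost their calls in most fits with 1 library left out. In these fits the log2 value of KRT86 ran from 0.84 to 1.55, and the DEGs among all genes numbered 1731 to 3356. KRT86 and KRT14 remained DEGs only without FIT replicate 3 and had adjusted p of 0.0592 to 0.128 without each other library. The log2 value of KRT14 was -3.13 without FIT replicate 1 and -6.49 without D-2 replicate 3, and that of KRT79 was -3.47 without D-2 replicate 3. KRT79 remained one only without D-2 replicate 3 or FIT replicate 3 (0.0663 to 0.110 without the others), KRT15 missed without D-2 replicate 3 (0.0532), and KRT6A without D-2 replicate 1 (0.0523) or 3 (0.0598).

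The D-3 cells differed from FIT in both directions. Of 19 keratins tested, 7 were DEGs, 4 upregulated (KRT81, KRT7, KRT80 and KRT38) and 3 downregulated (KRT18, KRT5 and KRT14), where 6.45% of all 21676 tested genes were DEGs, 4.29% upregulated and 2.17% downregulated. The ranges did not overlap for 13 keratins and for 32.4% of all tested genes. The median log2 fold change was -0.68 over the tested keratins and 0.02 over all tested genes, and 4 of the 19 passed the filter through 1 group alone (KRT5, KRT14 and KRT6A through FIT and KRT38 through D-3). KRT81 rose by 2.44 ± 0.345 (adjusted p = 0.00798), from 34.2 ± 11.8 FPKM in FIT to 194 ± 67.6 in D-3 (SD, n = 3), and this was the only one of the 7 to stay a DEG without any 1 library. KRT7 rose by 1.87 ± 0.333 (adjusted p = 0.0172) and KRT80 by 1.14 ± 0.257 (adjusted p = 0.0352). KRT38 was at least 8.03-fold higher in D-3 (12.7-fold without FIT replicate 3). KRT18 fell by 1.08 ± 0.208 on the log2 scale (adjusted p = 0.0213), and KRT14 was at least 59.6-fold lower, or 13.1-fold without FIT replicate 1. KRT5, which had 0, 9 and 18 estimated counts in D-3, had a fitted log2 value of -5.49 ± 1.01 (adjusted p = 0.0188) that ran from -6.46 without D-3 replicate 3 to -4.92 without D-3 replicate 1 or FIT replicate 3. Without D-3 replicate 3 only KRT81 remained a DEG, and without FIT replicate 2 only KRT81 and KRT5. Without D-3 replicate 1 the DEGs were KRT5, KRT7 and KRT81, without FIT replicate 1 KRT5, KRT80 and KRT81, and without FIT replicate 3 there were 9. Without D-3 replicate 2, KRT38 (adjusted p = 0.0664) and KRT14 (0.0633) were lost.

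The printed tissue after 14 days had no keratin above FIT among the DEGs. Of 17 keratins tested, 5 were DEGs, all downregulated (KRT8, KRT5, KRT15, KRT6A and KRT14), where 4.82% of all 20039 tested genes were DEGs, 1.66% upregulated and 3.16% downregulated. The ranges did not overlap for 12 keratins and for 34.1% of all tested genes. The median log2 fold change was -1.11 over the tested keratins and -0.06 over all tested genes, and 4 of the 17 (KRT5, KRT14, KRT6A and KRT16) passed the filter through FIT alone. KRT8 fell by 1.45 ± 0.175 on the log2 scale (adjusted p = 0.0101), from 8.31 ± 0.821 FPKM in FIT to 2.78 ± 0.511 in DP-3 (SD, n = 3). KRT5 was at least 34.5-fold lower in DP-3, KRT6A at least 32.6-fold lower and KRT14 at least 64.3-fold lower. These bounds rested on single FIT libraries, since they were 22.9-fold for KRT5 without replicate 3, 8.66-fold for KRT6A without replicate 2 and 14.1-fold for KRT14 without replicate 1. KRT15 fell by 1.93 ± 0.463 (adjusted p = 0.0451). KRT81 (0.61 ± 0.422, adjusted p = 0.390) and KRT75 (-0.59 ± 0.323, adjusted p = 0.279) were not DEGs. KRT8 and KRT5 remained DEGs without any 1 library, whereas KRT15, KRT6A and KRT14 remained so only without FIT replicate 3. With each other library left out, their adjusted p lay between 0.0724 and 0.137.

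No keratin was a DEG between IT and FIT, where 0% of all 21183 tested genes were DEGs and 2693 had an unadjusted p below 0.05 in edgeR. Of the 18 keratins tested, 4 had an unadjusted p below 0.05, and the ranges did not overlap for 2 of them, against 20.6% of all tested genes. KRT5, which passed the filter through FIT alone, had the lowest (log2 -4.82 ± 0.701, adjusted p = 0.131), with 0.0391 ± 0.0259 FPKM in IT and 1.199 ± 0.739 in FIT (SD, n = 3). DESeq2 called 2 keratins, KRT5 and KRT6A, and 661 of all genes. A single fit of all 18 libraries called KRT5 (adjusted p = 0.0208) and 553 of all genes. KRT75 (-1.08 ± 0.447, adjusted p = 0.377) and KRT81 (-0.77 ± 0.726, adjusted p = 0.726) had wide errors, and IT replicate 3 was apart in both. The 95% intervals of the log2 fold change ran from -2.19 to 0.66 for KRT81, from -2.14 to 1.74 for KRT86 and from -1.32 to 1.37 for KRT7, so that changes of 2-fold were not detectable for these genes, and from -1.17 to 0.25 for KRT18.

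**Figure D4:**
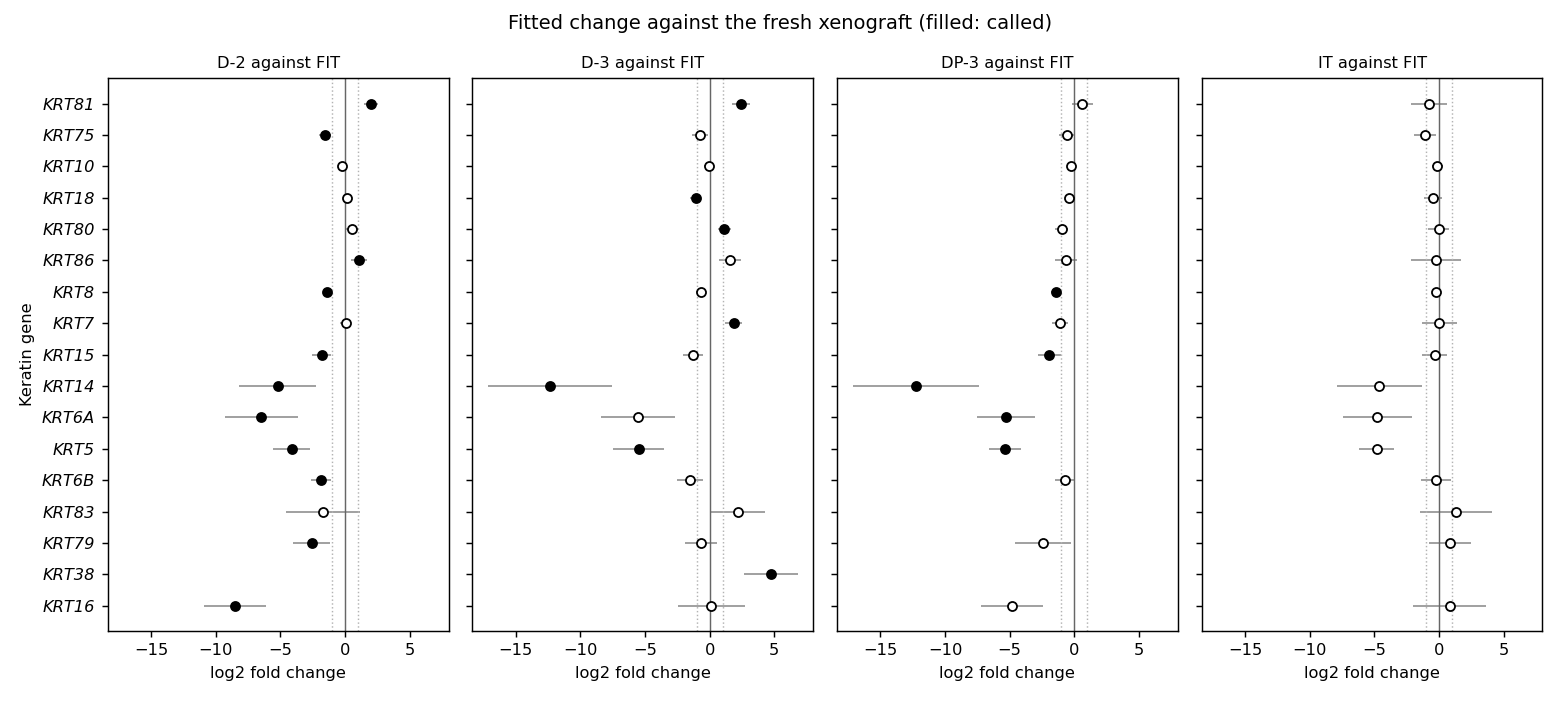
Fitted log2 fold change of the named keratins for each of the 4 other groups of day 14 minus FIT. Points are estimates, filled points are DEGs and dotted lines mark a 2-fold change. Grey bars are 95% intervals from the normal distribution, which are narrower than the test implies. KRT81 is filled to the right in D-2 and D-3 only, and no point is filled in IT. Values of genes at the floor in a group, such as KRT14 in D-3 and DP-3, depend on the prior count of the fit.

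Between day 1 and day 14 of the printed culture, KRT75 and KRT6B were upregulated and 6 keratins were downregulated. Of 16 keratins tested, 8 were DEGs, where 7.56% of all 20774 tested genes were DEGs, 1.81% upregulated and 5.76% downregulated. The ranges did not overlap for 12 keratins and for 45.2% of all tested genes. The median log2 fold change was -0.37 over the tested keratins and -0.06 over all tested genes, and 3 of the 16 (KRT14, KRT16 and KRT83) passed the filter through DP-3 day 1 alone. KRT86 fell by 1.87 ± 0.313 on the log2 scale (adjusted p = 0.00786), KRT81 fell by 1.24 ± 0.355 (adjusted p = 0.0458) and KRT7 fell by 1.09 ± 0.226 (adjusted p = 0.0160). KRT81 had means of 48.8 ± 24.7 FPKM at day 14 and 137 ± 2.09 at day 1 (SD, n = 3). KRT75 rose by 1.06 ± 0.226 (adjusted p = 0.0178), from 43.3 ± 1.63 to 75.1 ± 27.2 FPKM, and KRT6B by 1.65 ± 0.466 (adjusted p = 0.0436). KRT14 was at least 3.41-fold lower at day 14, KRT16 at least 4.44-fold and KRT83 at least 2.84-fold. Counting noise was computed with each estimated count as a separate read pair, so the multiples that follow are too large in every group. The 3 day 1 libraries differed from each other by 13.6 to 14 times this noise, against 15.4 to 22.9 times for pairs in D-2 and 33.3 to 147 times in the remaining groups. With these 3 libraries summed, a fit of 1 sample against 3 gave 0 DEGs among all genes and so shows nothing of the keratins' stability. The log2 values in it were -1.87 for KRT86, -1.23 for KRT81 and 1.06 for KRT75. A single fit of all 18 libraries called 0 of the 16 keratins and 1249 of all 20774 genes. KRT86 and KRT14 remained DEGs without any 1 library. Without DP-3 day 1 replicate 1 or 2 only these remained, without replicate 3 KRT7 as well, and 4, 6 and 4 keratins were DEGs without DP-3 replicate 1, 2 and 3.

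Among the cultures at day 14, D-3 had more KRT7, KRT38 and KRT83 and less KRT18 than D-2. Of 15 keratins tested, these 4 were DEGs, where 18.5% of all 20231 tested genes were DEGs, 14.6% upregulated and 3.95% downregulated. The ranges did not overlap for 10 keratins and for 53.2% of all tested genes. The median log2 fold change was 0.50 over the tested keratins and 0.11 over all tested genes, and 1 of the 15 (KRT38) passed the filter through D-3 alone. KRT7 rose by 1.78 ± 0.296 (adjusted p = 0.00538), from 1.36 ± 0.116 to 5.56 ± 2.39 FPKM (SD, n = 3), and KRT38 was at least 14.8-fold higher. KRT18 fell by 1.24 ± 0.213 on the log2 scale (adjusted p = 0.00595). KRT8 (0.67 ± 0.168, adjusted p = 0.0205) and KRT75 (0.79 ± 0.214, adjusted p = 0.0259) passed the p threshold without a 2-fold change. KRT81 did not pass (0.37 ± 0.232, adjusted p = 0.252). KRT83 (3.86 ± 1.18, adjusted p = 0.0402) had a log2 value of 5.13 without D-2 replicate 2 and was not a DEG without D-3 replicate 1 (0.105) or 3 (0.111) or D-2 replicate 1 (0.112) or 3 (0.0576). KRT75 became one without D-3 replicate 1 (log2 1.01).

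DP-3 against D-2 had 3 DEGs among the 12 keratins tested, all downregulated, where 1.04% of all 18549 tested genes were DEGs, 0.722% upregulated and 0.318% downregulated. The ranges did not overlap for 7 keratins and for 30.9% of all tested genes. The median log2 fold change was -0.30 over the tested keratins and 0.03 over all tested genes. KRT80 fell by 1.51 ± 0.227 (adjusted p = 0.0324), KRT86 fell by 1.75 ± 0.308 (adjusted p = 0.0411) and KRT7 fell by 1.16 ± 0.216 (adjusted p = 0.0475). KRT81 (-1.41 ± 0.361, adjusted p = 0.0873) and KRT75 (0.97 ± 0.226, adjusted p = 0.0729) did not pass, although all DP-3 libraries were below D-2 for KRT81 and above D-2 for KRT75. KRT80 and KRT7 lost their call with any 1 of the 6 libraries left out (adjusted p from 0.0502 to 0.181). KRT86 remained a DEG only without DP-3 replicate 3, where KRT81 also passed (adjusted p = 0.0206), and had 0.0668 to 0.159 without each of the others.

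**Figure D5:**
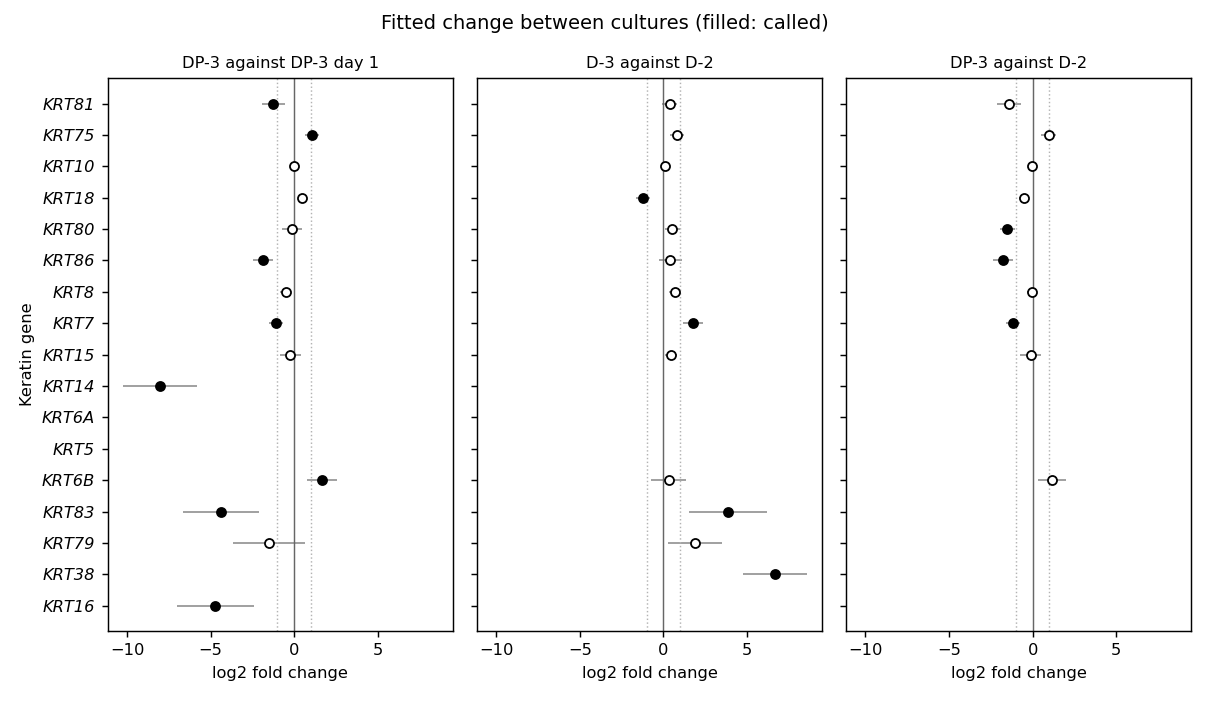
Fitted log2 fold change of the named keratins for DP-3 minus DP-3 day 1, D-3 minus D-2 and DP-3 minus D-2. Points are estimates, filled points are DEGs and dotted lines mark a 2-fold change. Grey bars are 95% intervals from the normal distribution, which are narrower than the test implies. KRT7 is filled in all 3 panels, to the left for the printed tissue and to the right for D-3, and KRT10 lies at 0.12 or less from the zero line.

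Genes that work with keratin filaments were counted in lists. VIM, the vimentin of mesenchymal cells, was at 603 to 1210 FPKM in all libraries, above every keratin. Of 16 intermediate filament genes outside the keratins, 11 were tested in D-2 against FIT and 4 were DEGs, all downregulated, where 10.8% of all genes were. In D-3 against D-2, 3 of 10 tested rose and 2 fell, where 14.6% and 3.95% of all genes did. In DP-3 against DP-3 day 1, 2 of 12 fell, where 5.76% of all genes did. In D-3 against FIT, 1 of 11 rose, where 4.29% of all genes did, and the other comparisons had 0 DEGs in this list. PRPH, the neuronal peripherin, rose in D-3 against FIT (log2 2.25, adjusted p = 0.0292) and against D-2 (4.25, adjusted p = 0.00244). It was lower in D-2 against FIT (-2.03, adjusted p = 0.0413) and in DP-3 against DP-3 day 1 (-1.44, adjusted p = 0.0494). Of 19 genes of desmosomes and keratin linkers, 7 or 8 were tested in each comparison. In DP-3 against FIT, 2 of 7 fell, where 3.16% of all genes did. In D-2 against FIT, 1 of 7 rose and 1 fell, where 3.83% and 10.8% of all genes did. In D-3 against FIT 1 of 8 fell and in DP-3 against D-2 1 of 7, where 2.17% and 0.318% of all genes did. The other comparisons had 0 DEGs in this list, where 18.5% of all genes were DEGs in D-3 against D-2. PLEC, the plectin that ties filaments to adhesions, fell in D-2 (by 1.18 on the log2 scale, adjusted p = 0.00366) and in D-3 (by 1.46, adjusted p = 0.00907) against FIT. DSP, the desmoplakin that anchors keratins at desmosomes, did not exceed 0.161 FPKM in any library. Of 12 genes of keratin regulation and binding, 11 were tested in D-2 against FIT, with 0 higher and 3 lower, where 3.83% and 10.8% of all genes were. In D-3 against D-2, 11 were tested, with 3 higher and 1 lower, where 14.6% and 3.95% of all genes were. SFN, a 14-3-3 protein of epithelial cells, fell against FIT in D-2 (by 2.99 on the log2 scale, adjusted p = 0.00394) and in DP-3 (by 2.69, adjusted p = 0.0168). Of 16 epithelial regulators and adhesion genes, 12 were tested in D-3 against D-2 and 7 in D-2 against FIT. In D-3 against D-2, 5 rose and 0 fell, where 14.6% of all genes rose and 3.95% fell. The list median was 1.37, against 0.11 for all genes. ESRP1, an epithelial splicing regulator, had 2.83 to 3.54 FPKM in D-3 and at most 0.00704 in D-2. It passed the filter through D-3 alone, and such genes can only add to the rises and to the median. How many other genes of the list did so was not counted. The adhesion genes CDH1 and EPCAM did not exceed 0.158 and 0.253 FPKM in any library.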

How the data were processed

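Poly(A) RNA of 18 libraries was sequenced in paired reads of 150 bases. The submitters' processing notes name cutadapt 1.9, HISAT2 2.0.4, StringTie 1.3.4d, DESeq2 and edgeR. The genome build, the annotation and the strand setting are not given in the sources used here. The authors deposited FPKM from StringTie and estimated counts for each gene. The counts are whole numbers, and 37.1% of those from 1 to 19 were multiples of 4, against 21.1% of the numbers in that range. They were used as deposited.

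The 6 libraries of a comparison were fitted together with edgeR 4.0.16 in R 4.3.3 (TMM, estimateDisp, glmQLFit, glmQLFTest), on genes with at least 0.1 FPKM in at least 3 libraries. DEGs had a Benjamini-Hochberg adjusted p below 0.05 and at least a 2-fold change. DESeq2 1.42.0, limma 3.58.1, other filters and scalings, a replicate block, and leaving out each library were alternatives. On simulated data of D-3 against FIT with 21676 genes, edgeR recovered 117 of 200 changed genes with 8 false calls. The simulation gave all genes the same dispersion, drew the libraries independently and set every change above 2-fold. Its counts are therefore not the error rates for the real libraries.

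Keratins were given in every library where a group mean reached 1 FPKM or where they were a DEG. The keratins and other gene lists were chosen with earlier results of these data known. With 12 estimated counts at the floor, the floor lay at 0.152 to 0.506 CPM, and depth limits cover counting error only. An exact permutation test of 3 against 3 libraries cannot give a p below 0.1, so only the fits across all genes were used. The numbers of replicates did not pair the libraries (correlations of deviations at most 0.043). No columns of values per sample were left unused.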

Additional observations from a re-analysis of the deposited data

How the results depend on the processing

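Of the 38 calls of keratin DEGs, 12 held under every alternative test, scaling, filter and fit that could be run, 14 held without any 1 library, 8 held under both, and 0 changed direction. Those 8 were KRT81, KRT75, KRT8 and KRT5 in D-2 against FIT, KRT81 in D-3 against FIT, KRT8 and KRT5 in DP-3 against FIT, and KRT7 in D-3 against D-2. In DP-3 against FIT, KRT5 passed the filter through FIT alone, the group where it was high. In both of its comparisons KRT5 could not be run with a minimum of 1 FPKM. Summing KRT81 with KRT83 and KRT86, or KRT75 with KRT6A, KRT6B and KRT6C, as chosen after seeing the data, changed no call of KRT81 or KRT75. By FPKM, KRT86 was 5.79% to 24.6% of KRT81, and KRT6B was 0.313% to 2.02% of KRT75. The sums therefore mostly repeat KRT81 and KRT75 and cannot test how reads were assigned among the copies. Median-of-ratios scaling kept every count of DEGs within 1.5 times. The cause of the changes that follow was not tested, except that a minimum of 1 FPKM leaves 12056 to 12888 genes in the comparisons given and limma on log2(FPKM + 1) shrinks the change of low genes.

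With a minimum of 1 FPKM, the keratin DEGs numbered 4 in D-2 and 4 in D-3 against FIT, 3 in DP-3 against DP-3 day 1 and 2 in D-3 against D-2, and all DEGs 1602 in D-2 against FIT, 900 in DP-3 against DP-3 day 1 and 1902 in D-3 against D-2. With limma on log2(FPKM + 1), the keratin DEGs numbered 2, 4 and 5 in DP-3, D-3 and D-2 against FIT, 2 in DP-3 against DP-3 day 1, 1 in D-3 against D-2 and 1 in DP-3 against D-2, and all DEGs 438, 739, 905, 494, 1178 and 57 in the same order. With limma on log2(FPKM + 0.1), the keratin DEGs numbered 2 in DP-3 against FIT and 1 in DP-3 against D-2, beside 1056 and 139 of all genes. With DESeq2, they numbered 12 in D-3 and 2 in IT against FIT, and all DEGs 2498, 1894 and 661 in D-3, DP-3 and IT against FIT and 677 in DP-3 against D-2. In a single fit of all 18 libraries, keratin DEGs numbered 1 in IT against FIT, 0 in DP-3 against DP-3 day 1 and 0 in DP-3 against D-2, and all DEGs 1619 in DP-3 and 553 in IT against FIT, 1249 in DP-3 against DP-3 day 1 and 142 in DP-3 against D-2. Without the FPKM filter, there were 1 keratin DEG and 53 DEGs in IT against FIT. With legacy = FALSE in edgeR, chosen after seeing the data, 8 keratins and 1581 genes were DEGs in DP-3 against FIT. With the DP-3 day 1 libraries summed, also chosen after seeing the data, 0 keratins and 0 genes were DEGs in DP-3 against DP-3 day 1, a fit of 1 sample against 3 that says nothing about stability.

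With the replicate number as a block, keratin DEGs numbered 3 in DP-3 against FIT, 3 in DP-3 against DP-3 day 1 and 0 in DP-3 against D-2, and all DEGs 904 and 164 in D-3 and DP-3 against FIT, 938 in DP-3 against DP-3 day 1 and 15 in DP-3 against D-2. The libraries shared only a number: every library correlated best with its own number in 1 of the 7 comparisons, DP-3 against DP-3 day 1, at correlations of 0.011 to 0.041. Under this block KRT16 was -1.33 in D-3 and -0.46 in IT and KRT7 was -0.48 in IT against FIT, a change of sign.

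With 1 library left out, keratin DEGs numbered 0, 2 to 6, 1 to 9 and 7 to 11 in IT, DP-3, D-3 and D-2 against FIT, 2 to 6 in DP-3 against DP-3 day 1, 3 to 4 in D-3 against D-2 and 0 to 2 in DP-3 against D-2. All DEGs numbered 0 to 1, 91 to 1503, 371 to 1518 and 1731 to 3356 against FIT in that order, and 800 to 1566, 2725 to 4343 and 3 to 223 in the other comparisons. Keratins that were not DEGs changed sign as follows, all on the log2 scale. With a minimum of 1 FPKM, KRT18 was -0.01 and KRT7 -0.08 in D-2 against FIT, and KRT10 was -0.10 in DP-3 against DP-3 day 1 and 0.04 in DP-3 against D-2. With limma on log2(FPKM + 0.1) and log2(FPKM + 1), KRT18 was -0.05 and -0.04 and KRT7 -0.08 and -0.06 in D-2 against FIT, and KRT7 was -0.42 and -0.15 in IT against FIT. In these fits KRT10 was 0.01 and 0.01 in D-3 against FIT, -0.26 and -0.25 in DP-3 against DP-3 day 1, and 0.01 and 0.01 in DP-3 against D-2, and with log2(FPKM + 0.1) KRT16 was -0.27 in D-3 against FIT. KRT16 was -0.02 there with legacy = FALSE. KRT80 was 0.0 in IT against FIT without the filter, and KRT10 was 0.0 in DP-3 against D-2 in the single fit.

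Without 1 library, log2 values ranged from -0.10 to 0.16 for KRT7 in D-2 against FIT, and in D-3 against FIT from -0.24 to 0.06 for KRT10 and -1.98 to 0.77 for KRT16. In IT against FIT they ranged from -0.72 to 0.11 for KRT15, -1.63 to 1.5 for KRT16, -0.88 to 0.17 for KRT6B, -1.24 to 0.49 for KRT7, -0.53 to 1.33 for KRT79, -0.56 to 0.31 for KRT80, -0.72 to 2.35 for KRT83 and -2.27 to 0.37 for KRT86. In DP-3 against DP-3 day 1 they ranged from -0.08 to 0.10 for KRT10, -0.55 to 0.06 for KRT15 and -0.39 to 0.21 for KRT80, and in D-3 against D-2 from -0.08 to 0.65 for KRT6B and -0.02 to 0.72 for KRT86. In DP-3 against D-2 they ranged from -0.10 to 0.08 for KRT10, -0.43 to 0.17 for KRT15 and -0.14 to 0.10 for KRT8.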
